A study of Mus musculus with 24 samples.

Results

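Wnt signalling was followed through 44 genes of the mouse mammary epithelium, each found by its symbol as 1 row among the 24007 genes of the table. They are 8 Wnt ligands, 2 genes of ligand secretion, 10 Frizzled receptors, 4 co-receptors, 3 genes of the R-spondin axis, 6 inhibitors, 7 cytoplasmic components and 4 nuclear TCF/LEF factors. Wnt ligands are lipid-modified secreted proteins that bind a Frizzled receptor together with LRP5 or LRP6. This stops the Axin, APC and GSK3 complex from destroying beta-catenin, which then enters the nucleus and activates genes with TCF/LEF factors, while other ligands signal through ROR receptors without beta-catenin. In the mammary gland the pathway is known for its part in the basal layer and its stem cells.

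The study set mice lacking Id4 against wild-type (WT) mice. ID4 is a helix-loop-helix protein without a DNA-binding domain that holds E proteins off their DNA sites, and the knockout (KO) line came from an earlier study. The labels do not say which part of Id4 is missing from its allele. The groups were KO basal, WT basal, KO luminal progenitor (LP), WT LP, KO mature luminal (ML) and WT ML, with 4 biological replicates in each, which made 24 libraries. All animals were FVB/N females of 10 to 12 weeks in estrus, and each replicate pooled the glands of 4 to 8 mice. Live cells without lineage markers were sorted as CD24+CD29hiCD61+ (basal), CD24+CD29loCD61+ (LP) and CD24+CD29loCD61- (ML). RNA of 0.5 to 2 ng was amplified before sequencing, without molecular identifiers.

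Library totals ran from 3098425 to 7246443 counts, so that 3 counts, the floor used here, stood for 0.378 to 0.976 CPM, the count scaled to a common library size. In KO basal libraries Id4 had 10.3, 1.13, 11.1 and 0.942 CPM, against 86.3, 13.2, 29.9 and 39.6 CPM in WT basal libraries, and it was near 0 in luminal cells. The sums of 8 marker genes per population fitted the sort labels: basal markers summed to 7758 CPM or more in every basal library and to at most 217 CPM in every luminal one. LP markers reached 4971 CPM or more in every LP library, and ML markers 4632 CPM or more in every ML library. That lowest ML sum was in KO ML replicate 2, against 8146 to 9144 CPM in the other KO ML libraries. Its LP marker sum was 1157 CPM, against 153 to 341 CPM in the others. WT basal replicate 2 stood apart, with an LP marker sum of 4544 CPM against 232 to 477 CPM in the other WT basal libraries, and an immune marker sum of 142 CPM against at most 15.1 CPM. KO basal replicate 3 had an endothelial marker sum of 218 CPM against 57.7 to 69.9 CPM in the other KO basal libraries. Their median Spearman correlations with their own groups were 0.739 for KO basal replicate 3 and 0.777 for WT basal replicate 2, the lowest of all libraries. In sorted bulk samples, fewer cells of a type and less RNA per cell cannot be told apart.

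**Figure D1:**
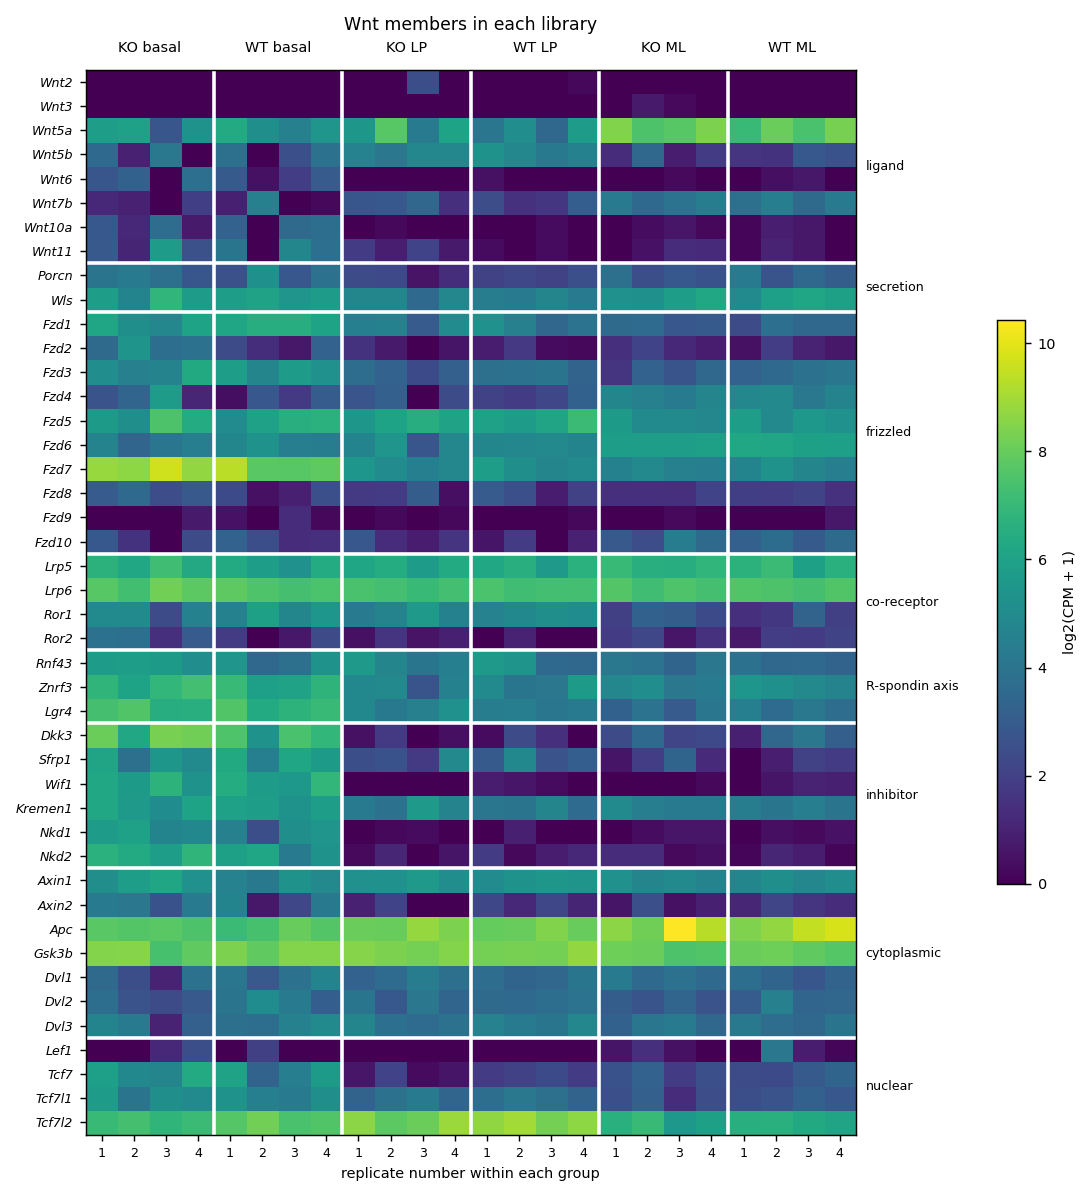
Level of each of the 44 members (rows, by role) in each of the 24 libraries (columns, by group and replicate number), as log2(CPM + 1). Fzd7, Lgr4, Znrf3 and the inhibitors Dkk3, Wif1, Nkd1 and Nkd2 are bright in basal libraries and dim in luminal ones, while Wnt5a is brightest in ML libraries and Tcf7l2 in LP libraries.

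Among the populations, more members were higher in basal cells than the share of all genes that were. The members were chosen with earlier results of these data known, so this excess is a description and not an independent test. In KO mice 14 of the 44 members were higher in basal than in LP cells and 1 was lower, with 38 members tested, where 8.12% and 6.69% of 12711 genes passed in these directions. In WT mice the counts were also 14 higher and 1 lower, with 37 members tested, where 9.12% and 6.68% of 12771 genes passed. Against ML cells, KO basal cells had 18 members higher and 4 lower (11.9% and 7.51% of all genes), and WT basal cells had 15 higher and 4 lower (14.0% and 10.6%). The median log2 fold change of tested members over LP was 1.25 in KO mice, also with Wif1 at its lower bound, and 1.16 in WT mice, beside -0.01 in KO and -0.03 in WT mice over all genes. Over ML it was 1.63 in KO and 1.12 in WT mice, beside 0.02 in KO and 0.01 in WT mice. Passing means an adjusted p under 0.05 in edgeR's quasi-likelihood test of all genes.

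The 2 luminal populations differed in fewer members. In KO mice 2 members were higher in LP than in ML cells and 1 was lower (4.08% and 1.59% of all genes, 5.67% in either direction), and in WT mice 4 were higher and 6 lower (6.62% and 4.89%, 11.5% in either direction). The median of members was -0.06 in KO and 0.02 in WT mice, beside -0.01 in both over all genes. Of 37 members tested in both genotypes, 26 had the same sign for basal against LP (70.3%, beside 71.9% of 12274 genes). There were 31 for basal against ML (83.8%, beside 75.8%) and 34 for LP against ML (91.9%, beside 79.3%). Whether these contrasts differ between genotypes is what the test of a difference in KO effects asks, and 0 of 41 tested members passed it, as given with the KO results.

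The counts moved with single libraries and replicate numbers. Without KO basal replicate 3, KO basal cells had 16 members passing against LP cells and 23 against ML cells, and without WT basal replicate 2, WT basal cells had 20 against LP cells and 26 against ML cells. Calls over all genes moved the same way, to 2191 against LP and 2706 against ML cells in KO mice (1883 and 2463 with that library), and to 2808 and 4035 in WT mice (2018 and 3140). The members gained as higher in WT basal cells without that library included the ligands Wnt6, Wnt10a and Wnt11 and the target gene Axin2. The ligand Wnt7b was gained as lower. Leaving out replicate 4 of every KO group lowered the count against ML cells to 12, while calls over all genes fell to 1294 from 2463. The member calls lost were Tcf7, Apc, Fzd3, Wnt11, Kremen1, Wnt5a, Fzd6, Ror1, Fzd5 and Fzd2. The KO calls against LP cells of Axin2, Ror2, Tcf7l2, Wls and Porcn were lost without replicate 1 and also without replicate 4, which ended that of Fzd3 too. Porcn was also lost without replicate 2 or 3, Ror2 without replicate 2 and Wls without replicate 3. The calls of Kremen1, Fzd6 and Ror1 against KO ML cells were lost without replicate 1, 2 or 4, that of Fzd2 also without replicate 2, and those of Wnt11, Wnt7b and Sfrp1 also without replicate 1. In WT mice Znrf3 was lost against LP cells without replicate 1 and against ML cells without replicate 1 or 4, Fzd1 against LP cells without replicate 3, and Tcf7 against ML cells without replicate 1. Wnt11 and Fzd5 against KO ML cells were lost without replicate 3 and without KO basal replicate 3 alone. For LP against ML in KO mice the count was 1 without replicate 1, 0 without replicate 4 and 5 without KO LP replicate 2, with 135, 118 and 744 calls over all genes beside 721 in all libraries. The KO call of Ror1 there was lost without replicate 1, 2 or 4 and that of Dkk3 without replicate 1, 3 or 4. In WT mice the count was 5 without replicate 1, 6 without replicate 3 and 4 without replicate 4, with 841, 892 and 663 calls over all genes beside 1470.

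**Figure D2:**
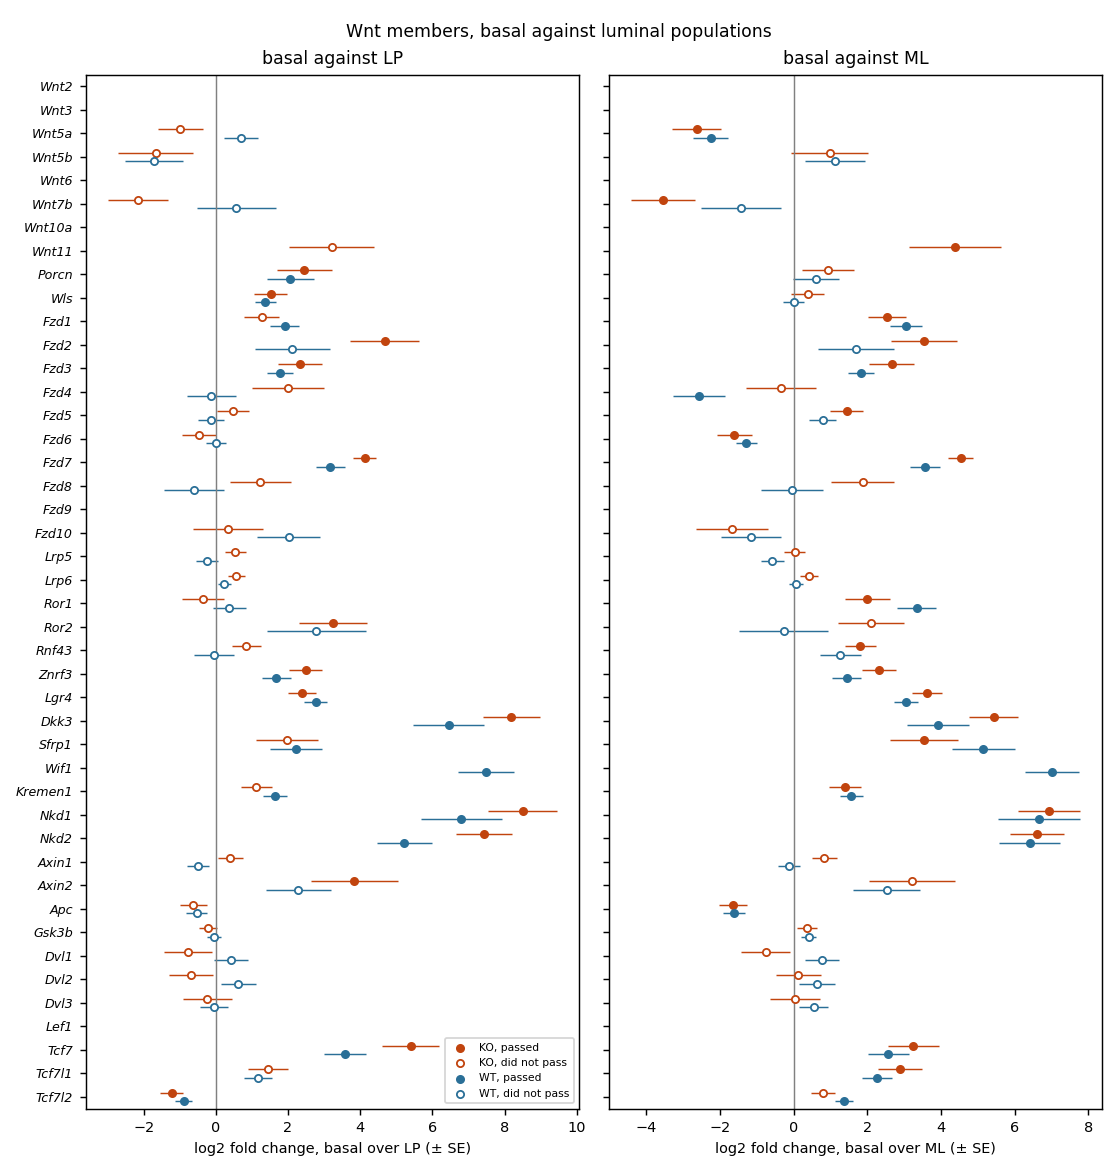
Fitted log2 fold change of each tested member, basal over LP (left) and basal over ML (right), with its standard error. KO is red and above WT in blue, filled points passed the test, members not tested have no point, and Wif1 in KO is left out because it had no count in any KO LP library. Most filled points lie to the right of 0, and Wnt5a, Fzd6 and Apc lie to the left against ML in both genotypes.

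Of the 8 ligands, Wnt5a and Wnt5b reached the highest group means and were divided between the luminal populations. Wnt5a (ENSMUSG00000021994, mm10 chromosome 14 from 28504750 to 28527448, plus strand), a ligand known mainly for signalling without beta-catenin, was the most abundant of these 8 ligands in ML cells. It had 54.6, 62.2, 5.85 and 40.0 CPM in KO basal, 44.6, 208, 18.2 and 65.8 CPM in KO LP and 349, 183, 209.6 and 328 CPM in KO ML libraries. In WT mice it had 81.0, 35.6, 22.3 and 42.3 CPM in basal, 16, 33.9, 10.4 and 53.3 CPM in LP and 131, 264, 169 and 314 CPM in ML libraries. ML libraries thus lay above all basal ones in both genotypes, and above all LP ones in WT mice, while KO LP replicate 2 reached into the KO ML range. Wnt5a passed as lower in basal than in ML cells in KO (log2 fold change -2.63, SE 0.65, edgeR adjusted p = 0.00844) and in WT mice (log2 fold change -2.25, SE 0.48, edgeR adjusted p = 0.00272). LP against ML passed in WT mice (log2 fold change -2.94, SE 0.50, edgeR adjusted p = 1.00e-03), and the KO value was -1.64 with an adjusted p of 0.17.

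Its close relative Wnt5b (ENSMUSG00000030170, mm10 chromosome 6 from 119432531 to 119544347, minus strand) had the opposite order in luminal cells. KO LP libraries had 23.5, 16.5, 27.7 and 27.6 CPM and KO ML libraries 1.53, 10.4, 0.751 and 2.51 CPM. The 10.4 CPM was in KO ML replicate 2, with the LP marker sum of 1157 CPM, whose part in it was not tested. WT LP libraries had 40.4, 27.4, 17.6 and 22.8 CPM and WT ML libraries 2.04, 1.88, 6.24 and 5.16 CPM. LP and ML libraries did not overlap in either genotype. The difference passed in WT mice (log2 fold change 2.84, SE 0.85, edgeR adjusted p = 0.0395), though not without replicate 1, 3 or 4, when the adjusted p ran from 0.10 to 0.247. In KO mice the log2 fold change was 2.65 with an edgeR adjusted p of 0.201. In basal cells Wnt5b varied from 0 to 16.9 CPM in KO and from 0 to 14.4 CPM in WT libraries.

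The other 6 ligands had group means of at most 16.5 CPM. Wnt6 and Wnt10a, which lie 6193 bases apart on chromosome 1, were found in basal cells at up to 13.2 and 12.4 CPM in KO and up to 6.96 and 12.6 CPM in WT libraries, and at no more than 0.854 CPM in any luminal library. Wnt11 had 6.44, 1.13, 53.7 and 4.94 CPM in KO basal and 15.4, 0, 26.9 and 13.1 CPM in WT basal libraries, and it passed against ML cells in KO mice (log2 fold change 4.39, SE 1.25, edgeR adjusted p = 0.0193). In WT basal replicate 2, the library with the high LP marker sum, Wnt10a, Wnt11 and Wnt5b had no count. Wnt7b was highest in ML cells, at 16.1 ± 4.36 CPM in KO ML and 16.1 ± 4.69 CPM in WT ML libraries (SD, n = 4 each), and basal cells passed as lower in KO mice (log2 fold change -3.54, SE 0.87, edgeR adjusted p = 0.00793). In basal cells it stayed at or below 2.83 CPM except for 22.2 CPM in WT basal replicate 2. Wnt2 had counts in 1 KO LP and 1 WT LP library and Wnt3 in 2 KO ML libraries, at no more than 4.73 CPM. Neither was tested in any comparison.

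Per kilobase of gene length, so that genes can be set side by side, Wnt5a made up 85.6% ± 5.14 of the ligand sum in KO ML and 83.2% ± 2.91 in WT ML libraries (SD, n = 4 each). This sum covers the 8 member ligands and not Wnt4, which had 28.1 ± 2.47 CPM per kilobase in KO ML and 26.6 ± 9.29 in WT ML libraries, beside 44.1 ± 13.7 in KO ML and 36.2 ± 13.9 in WT ML libraries for Wnt5a. In LP cells Wnt5b took 45.1% ± 18.7 in KO and 68.5% ± 14.4 in WT libraries, and Wnt5a 42.8% ± 26.6 in KO and 24.4% ± 13.3 in WT libraries, so that in KO LP cells these ligands were not told apart beyond the spread. In basal cells Wnt5a had the highest mean share, 37.9% ± 25.4 in KO and 33.8% ± 13.1 in WT libraries. The 2 secretion genes also differed among populations. Wls, the carrier that brings Wnt proteins to the cell surface, had 62.0 ± 38.1 CPM in KO basal, 22.6 ± 7.95 in KO LP and 50.8 ± 18 in KO ML cells (SD, n = 4 each). The WT means were 53.1 ± 8.51 CPM in basal, 20.9 ± 3.43 in LP and 54.1 ± 16 in ML cells. LP cells were thus lowest, and basal against LP passed in KO (log2 fold change 1.52, SE 0.46, edgeR adjusted p = 0.032) and in WT mice (log2 fold change 1.36, SE 0.29, edgeR adjusted p = 0.00389). The KO call was lost without KO basal replicate 3. Porcn, the enzyme that adds the lipid to Wnt proteins, also passed for basal against LP, with log2 fold changes of 2.45 in KO and 2.06 in WT mice. Its WT call was lost without WT basal replicate 2 and without any single replicate number. That library held 36.7 CPM against 4.93 to 13.8 CPM in the other WT basal libraries.

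**Figure D3:**
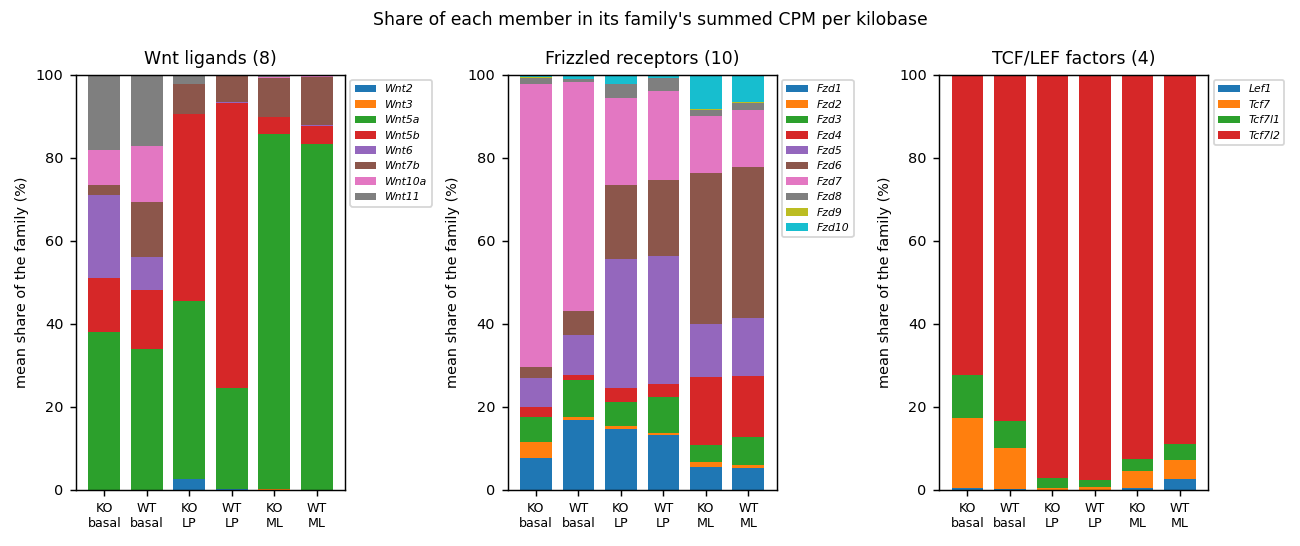
Mean share of each member in the summed CPM per kilobase of its family (stacked bars, %, n = 4 libraries per group), for ligands, Frizzled receptors and TCF/LEF factors. Fzd7 takes 68.2% of the Frizzled sum in KO basal and 55.1% in WT basal cells, Fzd6 36.3% in KO ML and 36.4% in WT ML cells, and Tcf7l2 at least 72.3% of the TCF/LEF sum in every group.

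The Frizzled receptors were led by Fzd7 in basal cells (ENSMUSG00000041075, mm10 chromosome 1 from 59482424 to 59486955, plus strand). KO basal libraries had 444, 398, 815 and 421 CPM and WT basal libraries 646, 218, 207 and 229 CPM. The 16 luminal libraries had 20.9 to 55.1 CPM, so that no basal library overlapped a luminal one. Over LP cells the change passed in KO (log2 fold change 4.12, SE 0.32, edgeR adjusted p = 5.44e-07) and in WT mice (log2 fold change 3.17, SE 0.40, edgeR adjusted p = 4.39e-05). Over ML cells the log2 fold change was 4.54 in KO and 3.56 in WT mice. The sum of the 10 receptors was 166 ± 51.3 CPM per kilobase in KO basal and 122 ± 44.9 in WT basal cells, against 32.8 to 44.3 as means of the 4 luminal groups.

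Fzd3, known for planar polarity and axon guidance, was also higher in basal than in both luminal populations in both genotypes. It had 33.5, 22.1, 24.1 and 80.5 CPM in KO basal and 56.4, 26.1, 53.1 and 38.1 CPM in WT basal libraries, and 2.04 to 16.1 CPM in luminal ones. Fzd1 was higher in basal than in both luminal populations in WT mice (log2 fold changes 1.90 and 3.06), and in KO mice only the ML contrast passed (2.54). Fzd2 had 11.3, 41.1, 12.7 and 13.7 CPM in KO basal libraries and passed against KO LP and KO ML cells, with log2 fold changes of 4.68 and 3.54. In WT basal libraries it had 4.35, 1.57, 0.604 and 8.62 CPM, and neither WT contrast passed.

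A second set of receptors was highest in ML cells. Fzd6 (ENSMUSG00000022297, mm10 chromosome 15 from 39006034 to 39038188, plus strand), a receptor of planar polarity, had 57.1, 55.3, 56.3 and 59.6 CPM in KO ML and 74.6, 70.5, 60.1 and 57.9 CPM in WT ML libraries. Basal libraries had 9.61 to 24 CPM in KO and 20.4 to 38.7 CPM in WT mice, below every ML library. Basal against ML passed in KO (log2 fold change -1.61, SE 0.48, edgeR adjusted p = 0.026) and in WT mice (log2 fold change -1.28, SE 0.28, edgeR adjusted p = 0.00293). LP against ML passed in WT mice (-1.28), though not without replicate 1, and did not in KO mice (-1.15, adjusted p = 0.218).

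Fzd4 and Fzd10 were likewise higher in WT ML than in WT LP libraries. Fzd4, the receptor of norrin as well as of Wnt, had 3.15, 2.65, 3.61 and 8.38 CPM in WT LP and 27.0, 28.7, 16.9 and 24.6 CPM in WT ML libraries (log2 fold change -2.44, SE 0.69, edgeR adjusted p = 0.0297). Fzd4 in WT basal libraries was also below WT ML (0.29, 6.09, 2.41 and 7.29 CPM, log2 fold change -2.57), a call lost without replicate 3. The LP against ML call of Fzd4 was lost on leaving out any single replicate number, with adjusted p from 0.0532 to 0.124. In KO mice Fzd4 had 5.32, 9.61, 52.4 and 1.18 CPM in basal, 5.65, 8.16, 0 and 4.21 CPM in LP and 26.5, 22.5, 17.8 and 25.7 CPM in ML libraries. Its single high KO basal value was in replicate 3, the library with the endothelial marker sum of 218 CPM, and the part of those transcripts in it was not tested.

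For Fzd10 the WT LP libraries had 0.504, 2.65, 0 and 0.949 CPM and the WT ML libraries 8.04, 12.0, 6.84 and 11.2 CPM (log2 fold change -3.17, SE 0.89, edgeR adjusted p = 0.0282). That call was lost without replicate 1, 3 or 4. In KO mice Fzd10 had 6.03, 1.53, 0.71 and 1.93 CPM in LP and 6.45, 4.51, 19.5 and 11.3 CPM in ML libraries, which overlapped, and it did not pass. Fzd5 was spread over the populations and had the highest mean share of the Frizzled sum per kilobase in LP cells, at 30.9% ± 15.4 in KO and 30.7% ± 12.2 in WT libraries (SD, n = 4 each). That lead was within the spread: single libraries held 53.4% (KO LP replicate 3) and 47.1% (WT LP replicate 4), and Fzd7 or Fzd6 exceeded Fzd5 in KO LP replicates 1 and 2 and in WT LP replicates 1 and 2. Fzd8 stayed at or below 10.7 CPM and Fzd9 at or below 1.51 CPM in every library.

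Among the 4 co-receptors, Lrp5 and Lrp6, the partners of Frizzled in beta-catenin signalling, passed no population contrast in either genotype. Lrp6 ranged from 133 to 196 CPM in the luminal libraries and from 154 to 293 CPM in the basal ones. Ror1 (ENSMUSG00000035305, mm10 chromosome 4 from 100095791 to 100444765, plus strand), a receptor-like kinase that binds Wnt5a, was lowest in ML cells. It had 18.5, 24.6, 48.5 and 23.2 CPM in KO LP and 2.89, 8.33, 7.51 and 4.13 CPM in KO ML libraries, against 23.7, 28.1, 35.9 and 32.4 CPM in WT LP and 1.66, 2.22, 8.85 and 2.95 CPM in WT ML libraries. LP and ML libraries did not overlap in either genotype, and LP against ML passed in KO (log2 fold change 2.35, SE 0.61, edgeR adjusted p = 0.0312) and in WT mice (log2 fold change 2.97, SE 0.51, edgeR adjusted p = 0.0012). Basal libraries had 31.1, 29.6, 4.23 and 22.8 CPM in KO and 22.9, 60.5, 26.9 and 43.3 CPM in WT mice, also higher than ML in both (2.00 and 3.34 on the log2 scale). Ror2, its relative, stayed at or below 14.0 CPM and passed for basal against LP in KO mice (log2 fold change 3.24, SE 0.95, edgeR adjusted p = 0.0291).

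The 3 genes of the R-spondin axis set how many Frizzled receptors stay on the cell. Lgr4 (ENSMUSG00000050199, mm10 chromosome 2 from 109917647 to 110014257, plus strand), a receptor for R-spondins, had 161, 191, 88.1 and 91.4 CPM in KO basal and 194, 82.1, 105 and 128 CPM in WT basal libraries. Luminal libraries held 6.95 to 37.8 CPM of it, below every basal library. It was higher in basal than in LP cells in KO (log2 fold change 2.39, SE 0.39, edgeR adjusted p = 4.22e-04) and in WT mice (log2 fold change 2.76, SE 0.32, edgeR adjusted p = 2.01e-05). Znrf3, one of the ubiquitin ligases that remove Frizzled, passed against both luminal populations in both genotypes, with log2 fold changes from 1.44 to 2.48. Rnf43, the other ligase, passed for basal against ML in KO mice (log2 fold change 1.81, SE 0.42, edgeR adjusted p = 0.00507), and its WT value was 1.27 with an adjusted p of 0.117.

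Among the 37 members tested in WT mice, the largest log2 fold changes of basal over LP cells were those of the inhibitors Wif1, Nkd1 and Dkk3, while Wnt10a and Wnt11, near 0 in WT LP cells, were not tested. In WT mice all 6 were higher in basal than in both LP and ML cells. In KO mice 4 were higher than in LP cells and 6 than in ML cells, with Sfrp1 (adjusted p = 0.138) and Kremen1 (0.0937) not passing over LP. Their sum was 164 ± 42.7 CPM per kilobase in KO basal and 123 ± 34.1 in WT basal cells (SD, n = 4 each), against 7.44 to 8.42 as means of the 4 luminal groups.

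E proteins, the partners of ID4, are known to bind E-boxes. Wif1 and Nkd1 were close to the floor in luminal cells, and their promoter sequences are shown because they hold E-box letters. They are RefSeq windows on GRCm38.p6 from 250 bases before to 50 bases after an annotated start, written 5′ to 3′ on the gene's strand. Capitals mark the E-box letters CAGGTG and CAGCTG, searched on both strands, so that CACCTG is the same E-box read from the other strand. The Nkd1 window is chr8:88527383-88527682 on the plus strand, at a RefSeq start inside the gene span of GENCODE, and the Wif1 window is chr10:121033754-121034053 on the plus strand.
Nkd1: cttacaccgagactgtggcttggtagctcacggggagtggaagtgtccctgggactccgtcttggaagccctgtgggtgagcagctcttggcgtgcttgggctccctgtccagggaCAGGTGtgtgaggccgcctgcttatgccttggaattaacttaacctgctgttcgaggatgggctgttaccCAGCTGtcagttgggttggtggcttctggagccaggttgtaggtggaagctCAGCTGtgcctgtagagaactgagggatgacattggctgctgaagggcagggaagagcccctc
Wif1: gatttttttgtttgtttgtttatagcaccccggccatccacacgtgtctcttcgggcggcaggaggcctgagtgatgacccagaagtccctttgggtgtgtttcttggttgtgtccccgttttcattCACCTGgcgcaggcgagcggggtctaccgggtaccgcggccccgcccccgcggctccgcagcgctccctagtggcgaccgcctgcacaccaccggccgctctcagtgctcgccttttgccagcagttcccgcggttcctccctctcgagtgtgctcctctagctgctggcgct

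Nkd1 held 3 of these E-boxes, at 134, 64 and 13 bases before the start, and Wif1 held 1, at 123 bases before it. Of the 12 members higher in WT basal than in both luminal populations, 7 matched a promoter window and 3 of them held an E-box, the third being Tcf7. The windows of Fzd1, Fzd7, Lgr4 and Nkd2 held none. Among all 44 members 28 matched, with 37 windows, of which 12 held an E-box. The share over all 32851 windows of the same length was 32.9%. The TCF/LEF core letters CTTTGAA and CTTTGAT, on both strands, stood in a window of 2 members, Wnt5b and Wnt11, in none of the 7, and in 8.65% of all windows. A match describes the letters and not a bound site.

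Wif1 (ENSMUSG00000020218, mm10 chromosome 10 from 121033960 to 121100650, plus strand) codes for a secreted protein that binds Wnt ligands. It had 74.9, 50.7, 106 and 40.0 CPM in KO basal and 85.8, 51.1, 45.9 and 119 CPM in WT basal libraries. All 4 KO LP libraries had no count, KO ML libraries had 0, 0, 0 and 0.18 CPM, WT LP libraries 0.756, 0.53, 0.241 and 0 CPM and WT ML libraries 0, 0.512, 1.01 and 0.884 CPM. Basal and luminal libraries were thus far apart in both genotypes. In KO mice the basal mean was at least 117-fold higher than in LP cells, with the floor of 3 counts in each KO LP library, averaged over the group. In WT mice basal cells passed over LP (log2 fold change 7.49, SE 0.77, edgeR adjusted p = 6.77e-06) and over ML (log2 fold change 7.01, SE 0.74, edgeR adjusted p = 6.37e-06).

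Nkd1 and Nkd2 code for cytoplasmic proteins that bind Dishevelled and dampen the signal, and Nkd1 is itself a known target of the pathway. Nkd1 (ENSMUSG00000031661, mm10 chromosome 8 from 88521354 to 88594884, plus strand) had 52.0, 61.3, 25.4 and 28.5 CPM in KO basal and 22, 4.71, 35.6 and 42.1 CPM in WT basal libraries, and no luminal library exceeded 0.883 CPM. In WT mice basal cells passed over LP (log2 fold change 6.80, SE 1.13, edgeR adjusted p = 5.78e-04) and ML (log2 fold change 6.66, SE 1.11, edgeR adjusted p = 3.76e-04). Nkd2 (ENSMUSG00000021567, mm10 chromosome 13 from 73818534 to 73847631, minus strand) had 100.2, 81.8, 55.9 and 111 CPM in KO basal and 58.9, 70.9, 19.3 and 38.6 CPM in WT basal libraries, and at most 2.65 CPM in luminal ones. Its change over ML cells passed in KO (log2 fold change 6.61, SE 0.73, edgeR adjusted p = 7.61e-06) and in WT mice (log2 fold change 6.41, SE 0.82, edgeR adjusted p = 3.41e-05). The lowest Nkd1 value of any basal library was in WT basal replicate 2, and the luminal ones still lay below it.

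Dkk3, a secreted member of the Dickkopf family (ENSMUSG00000030772, mm10 chromosome 7 from 112116017 to 112159057, minus strand), was the most abundant inhibitor per kilobase in KO basal cells, at 70.2 ± 32.7 CPM per kilobase (SD, n = 4). KO basal libraries had 272, 72.9, 313 and 286 CPM, KO LP 0.377, 2.38, 0 and 0.351 CPM and KO ML 4.25, 10.9, 3.57 and 3.95 CPM. WT basal libraries had 189, 39.1, 173 and 118 CPM, WT LP 0.252, 4.24, 1.69 and 0 CPM and WT ML 0.893, 9.90, 16.3 and 7.96 CPM. Every basal library lay above every luminal one. Over LP cells the change passed in KO (log2 fold change 8.18, SE 0.79, edgeR adjusted p = 3.10e-06) and in WT mice (log2 fold change 6.45, SE 0.98, edgeR adjusted p = 2.47e-04). Dkk3 was also the 1 member that passed as lower in LP than in ML cells of KO mice (log2 fold change -2.75, SE 0.71, edgeR adjusted p = 0.0293), and in WT mice the value was -2.53 with an adjusted p of 0.0825.

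Sfrp1, a secreted protein related to the Wnt-binding part of Frizzled (ENSMUSG00000031548, mm10 chromosome 8 from 23411502 to 23449632, plus strand), was called higher in basal than in LP and in LP than in ML cells of WT mice. KO basal libraries had 66.5, 13.2, 44.6 and 30.4 CPM, KO LP 4.71, 5.10, 2.37 and 28.8 CPM and KO ML 0.509, 2.73, 9.2 and 1.44 CPM. WT basal libraries had 78.4, 21.6, 69.4 and 50.1 CPM, WT LP 6.68, 27.7, 5.30 and 7.59 CPM and WT ML 0, 0.854, 3.02 and 2.51 CPM. A single LP library was high in each genotype, KO LP replicate 4 and WT LP replicate 2, and basal and LP libraries overlapped in both. The WT call of basal over LP was lost without replicate 1, 3 or 4. WT LP passed over WT ML (log2 fold change 2.93, SE 0.79, edgeR adjusted p = 0.0229), but not without replicate 1, 2 or 4, when the adjusted p ran from 0.0522 to 0.117. Kremen1, which binds Dickkopf proteins and removes LRP6 from the surface, had 55.2 ± 18.3 CPM in KO basal cells, against 52.9 ± 9.94 CPM in WT basal ones (SD, n = 4 each), and means of 17.2 to 26.1 CPM in the luminal groups. It lies 14765 bases from Znrf3 on chromosome 11.

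**Figure D4:**
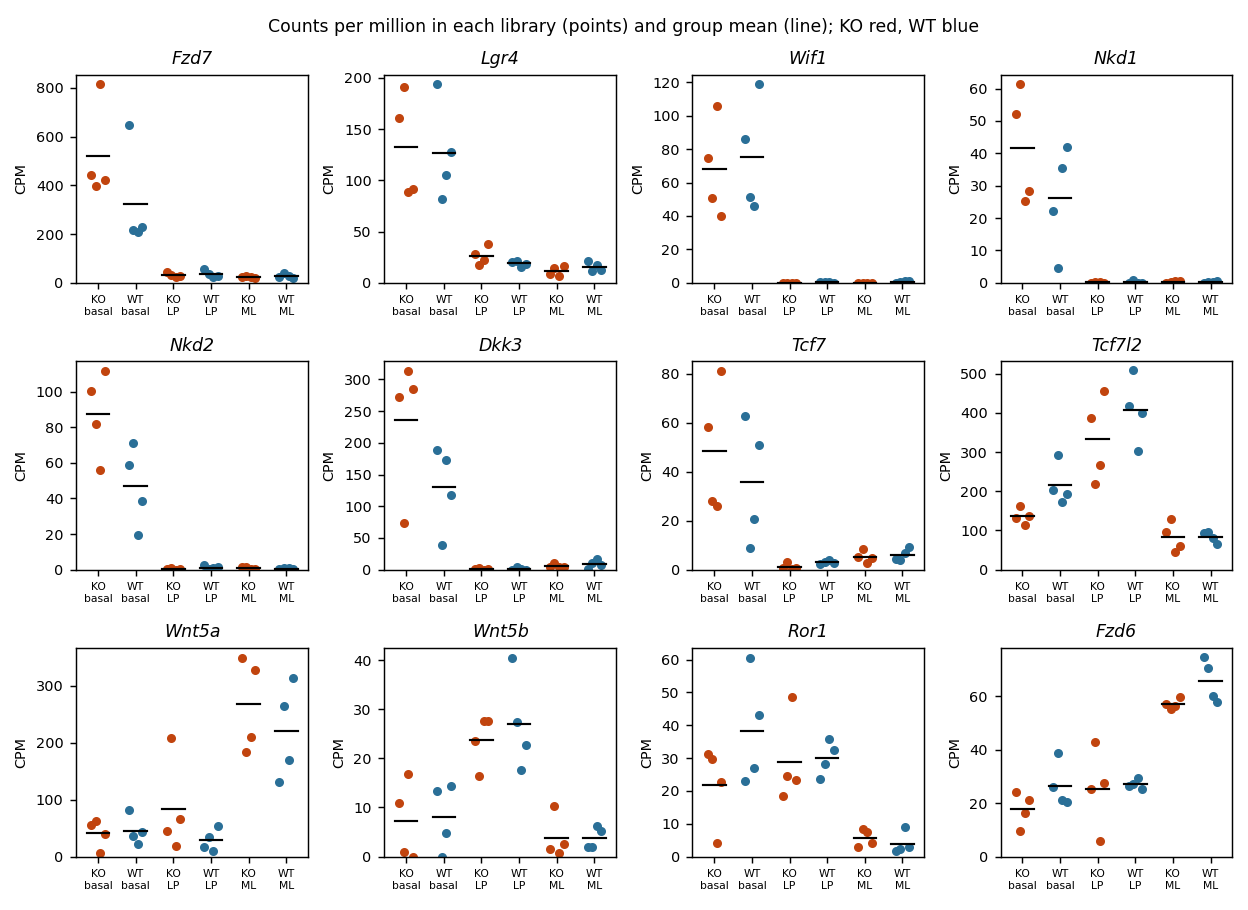
CPM of 12 members in each library (points) with the group mean (line), KO in red to the left of WT in blue for basal, LP and ML cells, each axis starting at 0. Fzd7, Lgr4, Wif1, Nkd1, Nkd2, Dkk3 and Tcf7 have their highest group means in basal cells, Tcf7l2 and Wnt5b are highest in LP, and Wnt5a and Fzd6 in ML.

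Of the 7 cytoplasmic components, Apc and Axin2 passed a population contrast and the other 5 did not. Apc (ENSMUSG00000005871, mm10 chromosome 18 from 34220924 to 34322552, plus strand), the scaffold of the destruction complex, had its highest group means in ML cells. KO basal libraries had 212, 197, 214 and 181 CPM and KO ML libraries 392, 282, 1371 and 624 CPM. WT basal libraries had 135, 166, 257 and 199 CPM and WT ML libraries 336, 426, 709.7 and 890.1 CPM. Every ML library lay above every basal one of its genotype, and basal against ML passed in KO (log2 fold change -1.65, SE 0.39, edgeR adjusted p = 0.00573) and in WT mice (log2 fold change -1.62, SE 0.29, edgeR adjusted p = 7.66e-04). Replicates 3 and 4 held the highest ML values in both genotypes. LP against ML also passed in WT mice (-1.08 on the log2 scale), with 248, 254, 347 and 255 CPM in the WT LP libraries, and was lost without replicate 3 or 4. KO LP libraries had 261, 257, 442 and 329 CPM, which overlapped the KO ML ones, and LP against ML did not pass in KO mice.

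Axin2, a negative regulator that is also a standard target gene of beta-catenin, had 18.8, 16.6, 5.20 and 19.1 CPM in KO basal and 25.4, 0.589, 3.62 and 17.6 CPM in WT basal libraries. Luminal libraries held at most 4.78 CPM. Basal against LP passed in KO (log2 fold change 3.83, SE 1.21, edgeR adjusted p = 0.0411) but not in WT mice (log2 fold change 2.28, SE 0.90, edgeR adjusted p = 0.102), where replicate 2 held 0.589 CPM. Without that library Axin2 passed against both luminal populations of WT mice. Axin1, Gsk3b (the kinase of the complex) and the Dishevelled genes Dvl1, Dvl2 and Dvl3, which relay the signal from Frizzled, passed no population contrast in either genotype. Gsk3b ranged from 165 to 426 CPM over all libraries.

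The TCF/LEF factors divided between basal and LP cells. Tcf7l2 (ENSMUSG00000024985, mm10 chromosome 19 from 55741820 to 55933654, plus strand) was the most abundant one in all populations, and LP cells had most of it. KO basal libraries had 133, 163, 113 and 137 CPM, KO LP 386, 219.6, 268 and 456 CPM and KO ML 96.3, 129, 46.0 and 59.4 CPM. WT basal libraries had 204, 293, 172 and 192 CPM, WT LP 416, 508, 303 and 399 CPM and WT ML 94.1, 96.6, 80.3 and 66.8 CPM. LP libraries lay above all basal and all ML libraries of their genotype. Basal against LP passed as lower in KO (log2 fold change -1.23, SE 0.32, edgeR adjusted p = 0.0156) and in WT mice (log2 fold change -0.90, SE 0.23, edgeR adjusted p = 0.0137). The WT call was lost without replicate 1 or 4 (edgeR adjusted p = 0.0976 and 0.109), and so was the KO call. LP against ML passed in KO (2.03) and in WT mice (2.27 on the log2 scale), and the KO call was lost without replicate 4.

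Tcf7 (ENSMUSG00000000782, mm10 chromosome 11 from 52252371 to 52283014, minus strand), a factor that is also a target of the pathway, was a basal transcript. It had 58.3, 28.1, 26.0 and 81.0 CPM in KO basal and 62.6, 9.04, 20.8 and 50.9 CPM in WT basal libraries. LP libraries had 0.565, 3.23, 0.237 and 0.527 CPM in KO and 2.52, 3.00, 4.10 and 2.53 CPM in WT mice, and ML libraries reached 8.6 CPM in KO and 9.14 CPM in WT mice. The lowest basal value, in WT basal replicate 2, lay within the WT ML range. Tcf7 was higher in basal than in LP cells in KO (log2 fold change 5.39, SE 0.79, edgeR adjusted p = 1.65e-04) and in WT mice (log2 fold change 3.57, SE 0.58, edgeR adjusted p = 4.96e-04). Tcf7l1, known mainly as a repressor, passed for basal against ML in KO (2.89) and in WT mice (2.25 on the log2 scale). Lef1 was hardly detected: LP libraries had no count, and its highest value was 16.7 CPM in WT ML replicate 2.

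Calls shared by the genotypes, which have no library in common, were counted for each contrast. For basal over LP, 11 members passed as higher in both genotypes, 78.6% of those passing in KO and 78.6% of those passing in WT mice, where the shares over all genes were 71.2% in KO and 63.1% in WT mice. For basal over ML 14 passed in both, 77.8% of the KO calls and 93.3% of the WT calls, beside 74.4% and 62.6% over all genes. For LP over ML, Tcf7l2 and Ror1 passed in both, 100% of the KO calls and 50% of the WT calls, beside 79.6% and 48.9% over all genes. No member passed as lower in LP than in ML cells in both genotypes. Tcf7l2 passed as lower in basal than in LP cells in both. Wnt5a, Fzd6 and Apc passed as lower in basal than in ML cells in both. The 9 members higher in basal cells than in both luminal populations in both genotypes were Fzd3, Fzd7, Tcf7, Dkk3, Wif1, Nkd1, Nkd2, Znrf3 and Lgr4.

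A list of 68 further Wnt pathway genes in the table was followed as well. It too was chosen with earlier results of these data known. In KO mice 10 of them were higher in basal than in LP cells and 4 lower, with 46 tested, where 8.12% and 6.69% of all genes passed. In WT mice 10 were higher and 3 lower, with 47 tested, where 9.12% and 6.68% of all genes passed. Against ML cells the counts were 17 higher and 2 lower in KO mice (11.9% and 7.51% of all genes) and 13 higher and 1 lower in WT mice (14.0% and 10.6%). The median log2 fold change over LP was 0.65 in KO and 0.37 in WT mice, and over ML it was 0.99 in KO and 0.47 in WT mice, with the medians over all genes between -0.03 and 0.02.

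Lgr5, an R-spondin receptor and stem cell marker, had 177 ± 63.0 CPM in KO basal cells, against 107 ± 32.0 CPM in WT basal ones (SD, n = 4 each), and group means of at most 2.70 CPM in luminal cells. Sostdc1, a secreted inhibitor of Wnt and BMP signals, had 49.4 ± 17.9 CPM in KO basal and 71.2 ± 84.4 CPM in WT basal cells and means of at most 1.38 CPM in luminal cells. Lgr6, the third R-spondin receptor, passed as higher in basal than in LP, in basal than in ML and in LP than in ML cells in both genotypes. Wnt4, a ligand induced by progesterone, had 118 ± 10.4 CPM in KO ML and 111 ± 39.0 CPM in WT ML cells, and both LP and basal cells passed as lower than ML cells in both genotypes. Myc, a target of the pathway among others, had 849.7 ± 231 CPM in basal cells of KO mice and 627 ± 111 CPM in those of WT mice, higher than in both luminal populations. Ccnd1 and Cd44 of the same list had their highest group means in LP cells instead. Ccnd1 had 187 ± 138 CPM in KO LP and 352 ± 115 CPM in WT LP cells. Its basal means were 78.8 ± 73.7 CPM in KO and 114 ± 20.9 CPM in WT mice. For Cd44 the LP means were 380 ± 97.6 CPM in KO and 301 ± 114 CPM in WT mice, against 186 ± 50.5 and 227 ± 97.1 CPM in basal cells.

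No member passed the test of KO against WT in any population. In basal cells edgeR called 0 of 39 tested members and 0% of 11307 genes. DESeq2 called 0 members, with 6 genes higher and 0 lower over all genes. At an edgeR unadjusted p under 0.05 there were 2 members, where 3.39% of all genes reached it. The fitted log2 fold change was positive for 23 members and negative for 16, where 50.6% of all genes were positive, with a median of 0.24 beside 0.01 over all genes, and this median was 0.01 in replicates 1 and 2 and 0.26 in replicates 3 and 4. KO and WT libraries did not overlap for 1 member that was higher (1.07% of all genes) and 1 that was lower (1.59%). The standard errors of the 39 members ran from 0.28 to 1.42 with a median of 0.53 on the log2 scale. A p that misses the threshold at this spread does not show that KO and WT levels were alike.

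**Figure D5:**
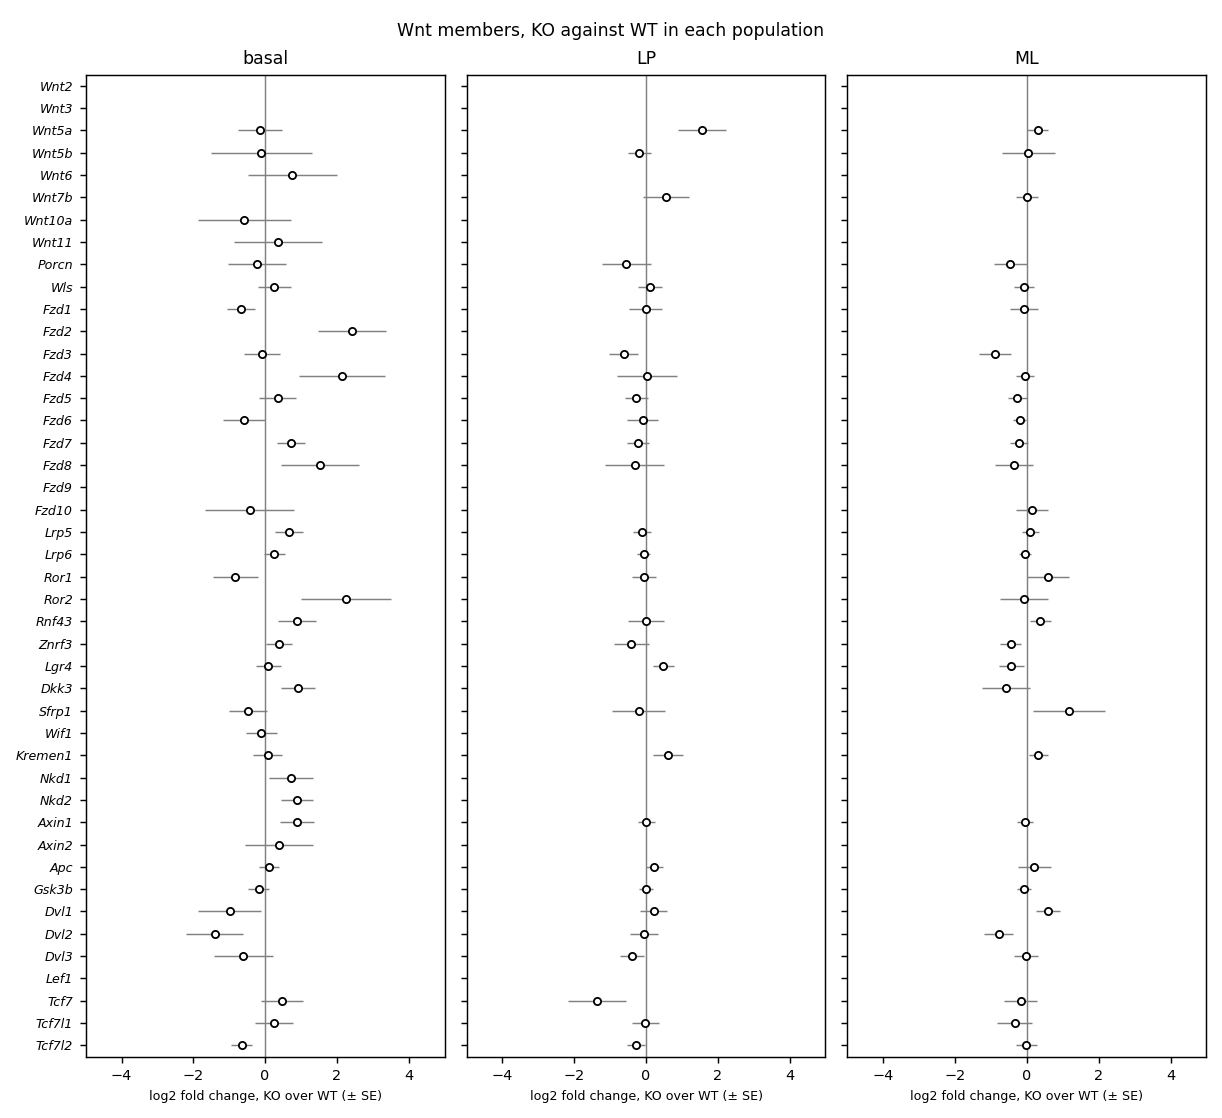
Fitted log2 fold change of each tested member, KO over WT, with its standard error, in basal, LP and ML cells. All points are open because 0 members passed in any population. The median standard error is 0.53 in basal, 0.38 in LP and 0.33 in ML cells, and Fzd2 stands at 2.42 in basal cells.

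The members nearest to the threshold in basal cells were Fzd2, Tcf7l2 and Nkd2. Fzd2, a receptor of Wnt5a among others (ENSMUSG00000050288, mm10 chromosome 11 from 102604396 to 102608058, plus strand), had 11.3, 41.1, 12.7 and 13.7 CPM in KO basal and 4.35, 1.57, 0.604 and 8.62 CPM in WT basal libraries, with every KO library above every WT one. Its log2 fold change was 2.42 (SE 0.95, edgeR unadjusted p = 0.0218, adjusted p = 0.998). It was 1.78 without KO basal replicate 2, the highest library, and 3.15 and 1.59 within replicates 1 and 2 and within replicates 3 and 4. Markers of other cells were set beside these values. The sum of 8 pericyte markers, of which Kcnj8 had no count, was 137 to 227 CPM in KO basal and 77.0 to 135 CPM in WT basal libraries, and the sum of 8 fibroblast markers was 145 to 287 CPM in KO basal and 92.6 to 253 CPM in WT basal libraries. Their part in the Fzd2 values was not tested.

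Tcf7l2 had 133, 163, 113 and 137 CPM in KO basal and 204, 293, 172 and 192 CPM in WT basal libraries, all KO libraries being lower. The log2 fold change was -0.65 (SE 0.29, edgeR unadjusted p = 0.04, adjusted p = 0.998). Without WT basal replicate 2, which held the most Tcf7l2 and the LP marker sum of 4544 CPM, it was -0.41. Nkd2 had 100.2, 81.8, 55.9 and 111 CPM in KO basal and 58.9, 70.9, 19.3 and 38.6 CPM in WT basal libraries, which overlapped (log2 fold change 0.89, SE 0.44, edgeR adjusted p = 0.998). Its value was 0.46 in replicates 1 and 2 and 1.60 in replicates 3 and 4.

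Other inhibitors and receptors of basal cells were also unresolved. Dkk3 had a log2 fold change of 0.91 (SE 0.47), Fzd7 of 0.73 (SE 0.39) and Nkd1 of 0.72 (SE 0.60). Wif1 stood at -0.10 (SE 0.42), Lgr4 at 0.09 (SE 0.35) and Axin2 at 0.39 (SE 0.95). None of these passed, and KO and WT libraries overlapped for each. Of the 68 further Wnt genes 0 of 45 tested passed in basal cells. The smallest p values there were those of Zbed3, an Axin-binding protein (log2 fold change 2.20, SE 0.58, edgeR adjusted p = 0.998), and Lgr5 (log2 fold change 0.75, SE 0.32, edgeR adjusted p = 0.998).

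In LP cells edgeR called 0 of 29 tested members and 0% of 11700 genes. DESeq2 called 0 members, with 7 genes higher and 1 lower over all genes. In edgeR 1 member had an unadjusted p under 0.05 (3.75% of all genes). The median log2 fold change was -0.06 beside 0.00 over all genes, and no member had KO and WT libraries apart, where 1.5% of all genes did so as higher and 1.2% as lower. Wnt5a had the smallest p, with 44.6, 208, 18.2 and 65.8 CPM in KO LP and 16, 33.9, 10.4 and 53.3 CPM in WT LP libraries (log2 fold change 1.56, SE 0.68, edgeR unadjusted p = 0.0407, adjusted p = 0.999). The groups overlapped, and without KO LP replicate 2 the value was 0.58. It was 2.37 in replicates 1 and 2 and 0.37 in replicates 3 and 4. The sum of 8 ML markers, all with counts, was 905 to 1614 CPM in KO LP libraries, highest in replicate 2, and 504 to 770 CPM in WT LP libraries, and its part in the Wnt5a values was not tested.

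Tcf7 and Lgr4 came next in LP cells. Tcf7 had 0.565, 3.23, 0.237 and 0.527 CPM in KO LP and 2.52, 3.00, 4.10 and 2.53 CPM in WT LP libraries (log2 fold change -1.36, SE 0.80, edgeR adjusted p = 0.999). Of the 4 KO libraries 3 lay below every WT one, and replicate 2 lay among them. Without KO LP replicate 2 the value was -2.70, and it did not pass. It was -0.50 in replicates 1 and 2 and -3.02 in replicates 3 and 4. Lgr4 had 27.9, 17.5, 22.3 and 37.8 CPM in KO LP and 20.2, 21.2, 15.9 and 18.2 CPM in WT LP libraries (log2 fold change 0.48, SE 0.30, edgeR adjusted p = 0.999), which overlapped.

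In ML cells edgeR called 0 of 32 tested members, where 0.00851% of 11747 genes passed. DESeq2 called 0 members, with 1 gene higher and 7 lower over all genes. No member had an edgeR unadjusted p under 0.05, which 3.87% of all genes reached. The median log2 fold change in edgeR was -0.07 beside 0.01. No member had KO and WT libraries apart, where 1.24% of all genes did so as higher and 1.41% as lower. Fzd3 had 2.04, 8.74, 5.45 and 10.4 CPM in KO ML and 8.67, 10.8, 14.3 and 16.1 CPM in WT ML libraries (log2 fold change -0.88, SE 0.44). Dvl2 had 7.30, 5.46, 9.58 and 5.39 CPM in KO ML and 7.14, 22, 9.45 and 9.87 CPM in WT ML libraries (log2 fold change -0.79, SE 0.41). Dvl1 had 18.3, 10.9, 14.3 and 11 CPM in KO ML and 12.5, 9.39, 5.83 and 8.84 CPM in WT ML libraries (log2 fold change 0.58, SE 0.33). These 3 members had the smallest p in ML cells, with edgeR adjusted p of 0.998 each, and their groups overlapped.

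Whether the KO effect differed between populations was tested in all 24 libraries. DESeq2 called 0 members. Over all genes it called 6 higher and 23 lower for basal minus LP, 13 and 17 for basal minus ML. For LP minus ML it called 0 and 1. In each of the 3 differences edgeR called 0 of 41 tested members and 0% of 14082 genes. At an unadjusted p under 0.05 there were 2 members for basal minus LP, 1 for basal minus ML and 0 for LP minus ML, where 6.96%, 6.89% and 1.32% of all genes reached it. Wif1 had the smallest p for basal minus LP (0.0116, edgeR adjusted p = 0.57) and for basal minus ML (0.0194, adjusted p = 0.627). Its fitted difference rests on luminal libraries with at most 1.01 CPM, and no size is given for it.

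Nkd2 was second for basal minus LP (difference 2.18, SE 1.00, edgeR adjusted p = 0.681 on the log2 scale). Axin1 was second for basal minus ML (difference 0.90, SE 0.44, edgeR adjusted p = 0.723). It had 34.6, 54.1, 70.2 and 38.1 CPM in KO basal and 23.8, 17.5, 40.1 and 29.3 CPM in WT basal libraries, against 37.7, 25.5, 30.0 and 24.2 CPM in KO ML and 26.5, 35.5, 27.4 and 33.5 CPM in WT ML libraries. For LP minus ML, Lgr4 came first (difference 0.92, edgeR adjusted p = 1) and Nkd2 second (-2.03), with at most 2.65 CPM of Nkd2 in any luminal library.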

How the data were processed

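Gene expression was measured by RNA sequencing of 24 sorted mammary libraries. The authors deposited expected counts per gene, which per the submitters' processing notes came from reads handled with cutadapt, STAR and RSEM on mm10; those notes give neither versions nor settings here. Expected counts share reads of similar genes by estimate, so close paralogs may be split unevenly. They were rounded to whole numbers. Amplification without molecular identifiers means that counts are not independent molecules, and floors of 3 counts cover counting error only. CPM used library totals with TMM factors, and CPM per kilobase used gene lengths.

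Tests were edgeR 4.0.16 quasi-likelihood fits in R 4.3.3 (limma 3.58.1) on all genes passing edgeR's expression filter, with Benjamini-Hochberg adjustment over all of them and a threshold of 0.05. KO was set against WT in the 8 libraries of a population, populations within the 12 libraries of a genotype, and differences of KO effects in all 24 libraries. Each standard error (SE) was derived as the absolute log2 fold change divided by the square root of the test's F statistic. It was not fitted separately, and it is unreliable where a group has almost no counts. DESeq2 1.42.0, its size factors, no filter, other sample sets, a replicate block and leaving out libraries were tried as alternatives. The fits were checked on simulated data.

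Members and lists were chosen with earlier results of these data known. Values in every library are given for the 3 members with the largest change in each direction of a WT population contrast (called, and at least 5 CPM), the 3 with the smallest p per KO comparison and the 2 per difference of KO effects; others shown that way were chosen after their values were seen. Of the further Wnt genes, the 2 with the smallest p per comparison could be named by rule, and any other was chosen after its values were seen. Replicate numbers come from the sample titles. For KO ML libraries these differ from the numbers in the separate replicate field, where a number occurs more than once. The pairing check, the block and the values without a KO ML replicate rest on the titles. Same-numbered KO and WT libraries deviated together in LP (correlations 0.127 to 0.379) and ML cells (0.135 to 0.350), and less in basal cells (0.0617 to 0.152). Of the 8 libraries compared, those correlating best with their same-numbered one were 8 in basal, 6 in LP and 7 in ML cells. Between populations of a genotype the counts were 7 in each WT pair and 5 to 6 in the KO pairs, with correlations from -0.00341 to 0.324. Replicates 1 and 2 against 3 and 4 are not a batch in the labels. RefSeq promoter windows on GRCm38.p6 were matched by symbol for 28 members.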

Additional observations from a re-analysis of the deposited data

Results flagged for a closer look

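In 6 of 81 group-by-member sets tested, a single library lay far from the other 3 of its group by Dixon's test. Its nominal rate of about 1 in 20 holds for normally distributed values. The CPM were not log-transformed, so that rate need not hold here, and all 6 were high values. In KO basal cells, Fzd2 stood at 41.1 CPM in replicate 2, beside 11.3 to 13.7 CPM in the others. Also in KO basal cells, Fzd4 stood at 52.4 CPM in replicate 3, beside 1.18 to 9.61 CPM. Sfrp1 reached 28.8 CPM in KO LP replicate 4, beside 2.37 to 5.10 CPM, and 27.7 CPM in WT LP replicate 2, beside 5.30 to 7.59 CPM. Apc had 347 CPM in WT LP replicate 3, beside 248 to 255 CPM. Dkk3 had 10.9 CPM in KO ML replicate 2, beside 3.57 to 4.25 CPM. That library had a basal marker sum of 189 CPM, beside 45.4 to 139 CPM in the other KO ML libraries. The part of those transcripts in the Dkk3 value was not tested.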

How the results depend on the processing

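Of 130 recomputed counts of members, 121 stayed within 1.5 times the value reported and 9 moved. The 121 include every count for KO against WT and for the differences of KO effects. Those were 0 as reported and 0 in each alternative, so they say little about stability. The 9 that moved were all among the population contrasts. None of the members chosen by rule changed the sign of its fitted value in its own comparison. Medians over members near 0 did change sign on leaving out each replicate number. For LP against ML in WT mice the median ran from -0.16 to 0.15, and for the LP minus ML difference from -0.08 to 0.04. All but 1 of the 9 concern LP against ML, and the other is basal against ML in KO mice without replicate 4. LP against ML in KO mice gave 5 members with DESeq2, against 3 as reported. A fit of the 8 libraries of these populations gave 6, and leaving out KO LP replicate 2 gave 5. Calls over all genes were 789 higher and 393 lower with DESeq2, beside 519 and 202 as reported. They were 913 and 539 in the 8 libraries. Without KO LP replicate 2 they were 744 in either direction, beside 721. Leaving out each replicate number gave 0 to 4 members for LP against ML in KO mice and 4 to 10 in WT mice. For basal against ML in KO mice it gave 12 to 22. Calls over all genes ran from 118 to 730, from 663 to 1525 and from 1294 to 2399 in the same order. The replicate number was also used as a block. KO mice then had 14 members passing for basal against LP, 22 for basal against ML and 4 for LP against ML. WT mice had 13, 19 and 10 for the same contrasts. Over all genes the block called 1039 higher and 963 lower for basal against LP in KO mice (1032 and 851 as reported). For basal against ML it called 1519 and 1134 (1508 and 955), and for LP against ML 602 and 250 (519 and 202). The WT counts were 1219 and 1020 (1165 and 853), 1789 and 1505 (1791 and 1349) and 1023 and 725 (845 and 625). The block ended the calls of Wls against LP and Fzd5 against ML cells in KO mice and of Porcn and Sfrp1 against LP cells in WT mice. With no expression filter the calls of Sfrp1 in WT mice (basal over LP, LP over ML) and, in KO mice, of Ror2 and Porcn against LP, Kremen1 and Wnt5a against ML and Dkk3 for LP against ML were lost. In fits of 8 libraries those of Porcn in WT mice, Axin2, Wls and Porcn against LP and Ror1 and Fzd5 against ML in KO mice, and Dkk3 for LP against ML in KO mice were lost, and 1 more KO call in each basal contrast was not tested there. The KO against WT comparisons and the differences of KO effects stayed at 0 members under the block. Correlations of same-numbered libraries were as low as 0.0617 in basal cells and -0.00341 between populations. Even so, for KO against WT every basal library and most LP and ML libraries correlated best with their own number. Between populations 5 to 7 of 8 libraries did so. The main fits left this pairing out. Leaving out WT basal replicate 2, KO basal replicate 3 or KO LP replicate 2 was chosen after seeing the data. Without WT basal replicate 2, LP against ML in WT mice gave 11 members, with 2180 calls over all genes beside 1470 as reported. Without KO basal replicate 3, basal against ML in KO mice gave 23, with 2706 calls beside 2463. The cause of these changes was not tested. Members near 0.976 CPM, the most that 3 counts stand for, are limited by depth.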
